A study of Mus musculus with 2 samples.

Results

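The genes described here are the chemokines, the interleukins and the interleukin receptors of sorted mouse lung cells. They were taken by symbol from the gene list of the deposited count matrices: every symbol starting with Ccl, Cxcl or Il and a number, and Cx3cl1 and Xcl1, without Cxcl15 and Il11ra1. The rule gives 119 genes of the 27933 in the matrices, of which 37 are chemokines, 39 are interleukins or antagonists of their receptors, 39 are receptor chains and 4 are a binding protein, a decoy receptor, an enzyme or an antisense RNA. The study sequenced single cells of mouse lung, sorted for EpCAM and against the endothelial, stem cell and leukocyte surface proteins CD31, CD34 and CD45 as well as CD24 and Sca-1, a sort that enriches alveolar type 2 (AT2) epithelial cells. There are 2 libraries, both from male mice: 1 labelled IP-/- (IPKO), where IP is the prostaglandin I2 receptor encoded by Ptgir, and 1 labelled WT. The age and number of the animals, any treatment and the deleted stretch of Ptgir are not given in the sources used here. Each group is 1 library, so no difference between the labels was tested, and intervals around levels and ratios are 95% intervals of counting error that say nothing of how animals vary.

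AT2 cells make surfactant and can renew the alveolar epithelium. Chemokines are small secreted or membrane-bound proteins that draw leukocytes through receptors of the Ccr, Cxcr and Cx3cr families. Most interleukins signal through paired receptor chains. Often a chain that binds the ligand joins one that many receptors share, so a cell usually needs both chains to respond. Lung epithelium is known as a source of the alarmin IL-33, of neutrophil chemokines after injury, and as a target of IL-1, IL-4, IL-13, IL-17 and IL-22.

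After removal of barcodes with fewer than 500 genes or more than 20% mitochondrial counts, 8072 of 10014 barcodes (80.6%) stayed in the library labelled IPKO and 6745 of 8924 (75.6%) in the library labelled WT. Cells were sorted into classes by fixed marker gates, without clustering. Keratin-high cells are those with the highest 5% of the summed share of Krt7, Krt8, Krt18 and Krt19, a range on a scale and not a cell type, and 330 cells lay within 10% of that limit. The libraries labelled IPKO and WT held 393 and 328 keratin-high cells, 7112 and 6122 AT2 cells (Sftpc at 10% or more of all UMIs), 64 and 64 endothelial cells, and 175 and 37 immune cells. The immune cells were 113 and 16 lymphocytes with 62 and 21 myeloid cells. The median number of UMIs (unique molecular identifiers, 1 per captured RNA molecule) per AT2 cell was 17076 in the library labelled IPKO and 18364 in the library labelled WT, with Sftpc, which encodes surfactant protein C, at 21.0% and 21.2% of UMIs. The lymphocyte class was led by Ccl5, Gzma and Nkg7 in the library labelled IPKO and by Cd52, Cd79a and Coro1a in the library labelled WT, so the lymphocytes of the libraries are not the same mixture. Ptgir went against the labels: 328 UMIs were counted in the library labelled IPKO and 1 in the library labelled WT. The assay reads the 3′ end of a transcript and the deleted part is not known here, so this does not settle which library is which, and every direction below is one between labels. The libraries shared 79 cell barcodes.

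A gene was called measured in a class of a library when at least 3 UMIs lay in at least 3 cells. By this rule 59 of the 119 genes were measured in AT2 cells of the library labelled IPKO and 55 in those of the library labelled WT, with 50 in both, where 55.1% and 53.6% of all genes were measured. In keratin-high cells 32 and 38 were measured, 31 in both, against 42.8% and 42.1% of all genes. In endothelial cells 14 and 13 were measured, 12 in both, against 27.7% and 27.6% of all genes. In immune cells 50 and 28 were measured, 28 in both, against 37.7% and 26% of all genes. These counts grow with the number of cells in a class, so they list what was seen and do not rank the classes.

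Among the ligands, AT2 cells of the libraries labelled IPKO and WT had 20 and 18 measured chemokines and 12 and 13 measured interleukins. The chemokines measured in AT2 cells of both libraries were Ccl4, Ccl5, Ccl6, Ccl20, Ccl25, Ccl27a, Ccl28, Cxcl1, Cxcl2, Cxcl3, Cxcl5, Cxcl10, Cxcl12, Cxcl16, Cxcl17 and Cx3cl1. Some of these rest on few cells. Ccl4 had 24 UMIs in 18 AT2 cells labelled IPKO and 28 UMIs in 6 AT2 cells labelled WT, 64.3% of the 28 in 1 cell. Ccl2, Ccl3, Ccl9 and Ccl17 passed in AT2 cells labelled IPKO alone, and Ccl8 and Cxcl14 in AT2 cells labelled WT alone, all of them below 1 CPM (1 UMI in 1000000 UMIs of the class). The interleukins measured in AT2 cells of both were Il2, Il6, Il7, Il11, Il15, Il16, Il17d, Il18, Il23a, Il33 and Il34, with Il1b in the library labelled IPKO alone and Il1f9 and Il27 in the library labelled WT alone. Keratin-high cells of both libraries had Ccl25, Ccl27a, Cx3cl1, Cxcl1, Cxcl3, Cxcl10, Cxcl16 and Cxcl17 with Il2, Il7, Il11, Il15, Il17d, Il18, Il33 and Il34. Endothelial cells had 3 ligands in both, Cxcl12, Cxcl16 and Il33, the last from 6 UMIs in each library. Immune cells had Ccl3, Ccl4, Ccl5, Ccl6, Ccl9, Cx3cl1 and Cxcl2 with Il1b, Il1f9, Il1rn, Il12a, Il16 and Il18 in both.

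Among the receptors, 25 and 21 chains were measured in AT2 cells labelled IPKO and WT, 15 and 15 in keratin-high cells, 11 and 9 in endothelial cells and 24 and 15 in immune cells. The 21 chains seen in AT2 cells of both libraries included the shared chains Il6st, Il10rb and Il1rap, the ligand-binding chains Il1r1, Il4ra, Il6ra, Il13ra1, Il15ra and Il18r1, and the IL-17 receptor chains Il17ra, Il17rc, Il17rd and Il17re. Il2rg, Il7r, Il21r and Il27ra, receptor chains of lymphocytes, passed in AT2 cells of the library labelled IPKO alone. No UMI of 23 of the 119 genes was found in any barcode. These include Ccl7, Ccl24, Il3, Il9, Il24 and Il31, and also Il22ra1 and Il20ra, the ligand-binding chains of the IL-22 and IL-20 receptors, and Il17c, the ligand of the Il17re chain. A further set was seen too rarely to pass, so that 46 genes were measured in no class.

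**Figure D1:**
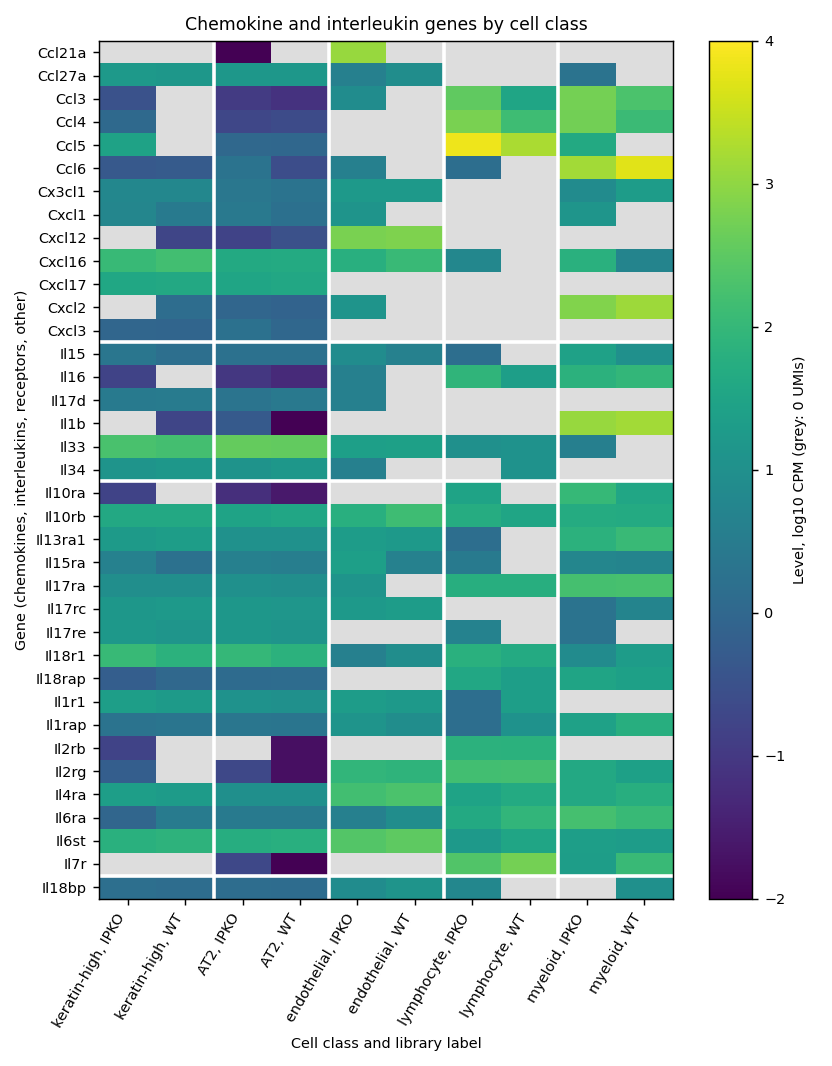
Level (log10 CPM, colour; grey marks 0 UMIs) of the 37 genes named by a rule, in keratin-high, AT2, endothelial, lymphocyte and myeloid cells of each library (columns; the library labelled IPKO left of the library labelled WT in each class). Il33 and Il18r1 are high in both epithelial classes, Cxcl12 in endothelial cells, Ccl5 in lymphocytes and Ccl6, Il1b and Cxcl2 in myeloid cells.

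In AT2 cells 28 of the 119 genes reached 1 CPM in the library labelled IPKO and 26 in the library labelled WT, the 26 being among the 28. UMIs count molecules by their 3′ ends, so levels are set side by side between genes without a correction for length. Il33, the alarmin that is stored in the nucleus and released on cell damage, stood above all other members. It had 384 CPM in AT2 cells labelled IPKO and 357 CPM in AT2 cells labelled WT, and at least 1 UMI in 95.1% and 93.4% of cells. A typical AT2 cell held 5 Il33 UMIs in the library labelled IPKO and 4 in the library labelled WT, with 1 at the tenth percentile and 14 at the ninetieth in both. With every cell thinned to 3000 UMIs, Il33 was seen in 60.3% and 52.2% of AT2 cells, against 4.63% and 6.67% of lymphocytes, a class that should lack it. Before thinning, 6.19% and 6.25% of lymphocytes had an Il33 UMI at median totals of 5161 and 5599 UMIs. The AT2 share is therefore far above the level of free RNA. Its receptor chain Il1rl1 (ST2) had no UMI in the AT2 cells of either library, which allows a level of up to 0.0240 and 0.0258 CPM. Il33 lies at chr19:29925114-29960718 on the plus strand (GRCm38, GENCODE vM21).

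The next ligands of AT2 cells were a pair of chemokines. Cxcl16, a transmembrane chemokine that is shed from the surface and binds Cxcr6 on T cells, had 44.1 CPM in AT2 cells labelled IPKO and 46.4 CPM in those labelled WT. Cxcl17, a chemokine of mucosal surfaces, had 33.4 and 39.6 CPM. Their order is the same in both libraries, and their intervals do not overlap. Ccl27a, known as a skin chemokine that acts on Ccr10, had 15.2 and 14.7 CPM, summed over 3 annotated copies of the gene, 1 of which overlaps Il11ra1 on the other strand. Il34, a ligand of the macrophage receptor Csf1r, had 11.9 CPM in the library labelled IPKO and 14.9 CPM in the library labelled WT. Il7, a survival factor of lymphocytes, had 3.98 and 4.30 CPM, and Ccl25, the ligand of Ccr9, had 3.38 and 3.37 CPM. The Ccl25 gene overlaps Elavl1 on the other strand. Cxcl16, Cxcl17, Il34 and Il7 also overlap annotated genes on the other strand. Ccl25 was not confined to epithelial cells, with 7 UMIs (10.5 CPM) in lymphocytes labelled IPKO and 1 UMI in lymphocytes labelled WT. The acute neutrophil chemokines were much lower, with Cxcl1 at 2.62 and 1.62 CPM, Cxcl3 at 1.70 and 1.00 CPM and Cxcl2 at 0.936 and 0.807 CPM. Cx3cl1 (fractalkine), a membrane-bound chemokine for monocytes, had 2.42 and 1.91 CPM. Il17d and Il15 had 2.06 and 2.72 CPM, and 1.74 and 1.72 CPM. Il6 was measured by 22 and 20 UMIs over all AT2 cells, 0.176 and 0.172 CPM. Il2, a T-cell growth factor, had 0.816 and 0.636 CPM. Its gene overlaps Adad1 on the other strand.

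Il18r1, the ligand-binding chain of the IL-18 receptor, was the highest receptor of AT2 cells. It had 98.0 CPM and a UMI in 74.3% of AT2 cells labelled IPKO, and 70.1 CPM and a UMI in 67.0% of AT2 cells labelled WT. The accessory chain Il18rap, which lies next to it on chromosome 1, had 1.22 and 1.34 CPM. Il18 itself, the ligand, had 0.624 and 0.352 CPM. The chains of this receptor thus differed in level far more than the libraries did. Il6st (gp130), the signalling chain shared by IL-6, IL-11 and related cytokines, had 53.4 and 59.7 CPM, and Il6ra, which binds IL-6, had 2.99 and 2.84 CPM. Il10rb, the chain shared by IL-10, IL-22 and interferon lambda receptors, had 30.8 and 35.5 CPM (a predicted gene, Gm21970, overlaps it on the same strand). Its IL-10 partner Il10ra had 8 and 3 UMIs over all AT2 cells, and its IL-22 partner Il22ra1 had none.

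The IL-17 receptor was seen with 3 of its chains at like levels in AT2 cells. Il17re, which binds IL-17C with Il17ra, had 14.9 CPM in the library labelled IPKO and 12.8 CPM in the library labelled WT. Il17rc, which binds IL-17A and IL-17F with Il17ra, had 14.8 and 14.0 CPM. Il17ra, the common chain, had 10.3 and 9.29 CPM. The type II IL-4 receptor, which answers IL-4 and IL-13, was present with both chains. Il4ra had 9.96 and 9.48 CPM and Il13ra1 had 11.0 and 10.9 CPM. Il2rg, the partner of Il4ra in the type I receptor of lymphocytes, had 25 and 2 UMIs over all AT2 cells. Il1r1, the IL-1 receptor, had 11.7 and 10.1 CPM, and its accessory chain Il1rap had 2.27 and 2.10 CPM. Il15ra, which presents IL-15 to neighbouring cells, had 4.11 and 3.70 CPM.

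Chemokine receptors were low in AT2 cells. Of 23 genes of these receptors, 15 were measured in AT2 cells labelled IPKO and 8 in AT2 cells labelled WT, where 55.1% and 53.6% of all genes were measured. Ccr1, Ccr2, Ccr7, Ccr10, Cx3cr1, Cxcr2 and Xcr1 passed in AT2 cells labelled IPKO alone, from 3 to 26 UMIs each. AT2 cells with 2 or more of 5 pan-immune markers numbered 23 and 3 in the libraries labelled IPKO and WT. The part of immune cell RNA in these receptor counts was not tested. Ccr6, the receptor of Ccl20, was the 1 of the 23 that reached a mean of 1 CPM, with 4.14 and 3.38 CPM. Cxcr6, the receptor of Cxcl16, had 8 and 5 UMIs over all AT2 cells, 0.064 and 0.043 CPM. In lymphocytes Cxcr6 had 38.9 CPM in the library labelled IPKO (26 UMIs in 9 cells) and 11 UMIs in 1 cell of the library labelled WT, which does not pass as measured. Ccr10, the receptor of Ccl27a, had 4 and 2 UMIs over all AT2 cells and passed as measured in no other class. Cxcr2, the receptor of the scarcer ligands Cxcl1, Cxcl2, Cxcl3 and Cxcl5, had 11 and 1 UMIs over all AT2 cells, against 39 and 55 UMIs (75.7 and 284 CPM) in myeloid cells.

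Between the libraries, most of the members compared in AT2 cells differed by less than 1.5-fold. A ratio was formed for the 28 members that reached a mean of 1 CPM and a sum of 20 UMIs, and was counted from 1.5-fold (0.585 on the log2 scale). In the library labelled IPKO 3 of the 28 were higher (2.89% of all 10892 genes so formed) and 0 were lower (1.95% of all genes). The median log2 ratio of the members was 0.07, and that of all genes was also 0.07. The 3 genes were Ccl6, Cxcl1 and Cxcl3. The early-response genes and the markers of immune cells also stood apart in AT2 cells: 12 early-response genes such as Fos and Jun summed to 5404 CPM in the library labelled IPKO and 3081 CPM in the library labelled WT, and 5 pan-immune markers to 4.92 and 0.859 CPM. All of the lymphocyte markers together had 28.8 and 24.7 CPM, most of it Cd79b with 24.9 and 22.4 CPM, and all of the myeloid markers had 18.3 and 6.17 CPM. For the immune markers, ratios without the cells that hold them are given below; the part of the early-response genes in the differences was not tested.

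**Figure D2:**
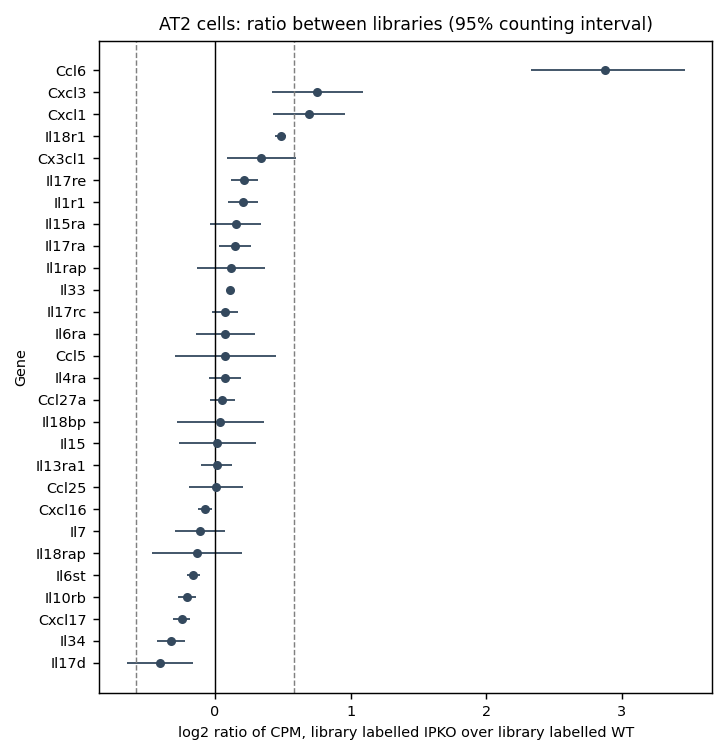
Log2 ratio of CPM in AT2 cells, library labelled IPKO over library labelled WT, for the 28 genes that reached a mean of 1 CPM; points are ratios, bars are 95% counting intervals and dashed lines mark 1.5-fold. Ccl6, Cxcl3 and Cxcl1 lie to the right of the dashed line and no gene lies to the left of the other.

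Cxcl1, Cxcl2 and Cxcl3, neutrophil chemokines that act on Cxcr2, lie close together on chromosome 5, at chr5:90891241-90893115, chr5:90903871-90905938 and chr5:90786103-90789600 on the plus strand (GRCm38, GENCODE vM21). Cxcl1 had 328 UMIs in 143 AT2 cells labelled IPKO and 189 UMIs in 100 AT2 cells labelled WT, a log2 ratio of 0.69 (0.43 to 0.96). Cxcl3 had 212 UMIs in 156 cells and 117 UMIs in 109 cells, a log2 ratio of 0.75 (0.42 to 1.09). The counting intervals of both ratios lie above 0. The intervals of the shares of cells at equal depth overlapped: thinned to 3000 UMIs, 0.564% (0.403 to 0.767) of AT2 cells labelled IPKO and 0.541% (0.372 to 0.758) of those labelled WT had a Cxcl1 UMI, and 0.395% (0.263 to 0.570) and 0.328% (0.2003 to 0.506) had a Cxcl3 UMI. Cxcl2 had 117 UMIs in 34 cells and 94 UMIs in 31 cells, a log2 ratio of 0.21 (-0.19 to 0.62), an interval that spans 0. Without the 1 AT2 cell with the highest count of each gene in each library, the log2 ratio was 0.72 for Cxcl1 and 0.62 for Cxcl3. In the 23 AT2 cells labelled IPKO that held 2 or more of the 5 pan-immune markers, Cxcl1 had 0 UMIs and Cxcl3 had 1. Without such cells in either library the log2 ratios were 0.70 for Cxcl1 and 0.75 for Cxcl3.

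These 3 genes are shown with the 250 bases before their start (RefSeq, GRCm38.p6, plus strand; the RefSeq starts differ by some bases from the GENCODE starts above) because their promoters share a sequence that few promoters have. The NF-kB motif (GGGA, any base, TTTCC), searched on both strands, was found in 5 of 111 promoters of 91 member genes (4.50%), those of Cxcl1, Cxcl2, Cxcl3, Il6 and Il16, and in 117 of 32851 promoters of all genes (0.356%). In capitals is the match, the same 10 letters in all 3, which begins 71, 97 and 73 bases before the RefSeq gene start. These distances depend on the start used. The Cxcl2 window ends at 90903898, past the GENCODE start of Cxcl2 at 90903871. The windows are chr5:90890995-90891244, chr5:90903649-90903898 and chr5:90785851-90786100. The AP-1 motif TGANTCA was found in 18 of the 111 promoters (16.2%), none of these 3 among them, and in 2217 of all promoters (6.75%). A match describes letters only. Whether the matches of these 3 genes, which lie close together, are independent of each other was not tested.
Cxcl1: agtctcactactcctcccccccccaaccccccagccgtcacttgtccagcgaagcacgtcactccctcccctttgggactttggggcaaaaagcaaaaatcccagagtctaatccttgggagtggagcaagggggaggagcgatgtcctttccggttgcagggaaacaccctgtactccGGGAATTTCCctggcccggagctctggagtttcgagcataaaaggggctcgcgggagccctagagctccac
Cxcl2: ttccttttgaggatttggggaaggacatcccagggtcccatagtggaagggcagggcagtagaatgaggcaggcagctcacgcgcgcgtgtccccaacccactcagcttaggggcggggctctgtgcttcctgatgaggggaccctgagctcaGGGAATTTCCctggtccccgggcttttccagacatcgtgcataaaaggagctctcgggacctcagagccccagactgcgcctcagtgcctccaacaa
Cxcl3: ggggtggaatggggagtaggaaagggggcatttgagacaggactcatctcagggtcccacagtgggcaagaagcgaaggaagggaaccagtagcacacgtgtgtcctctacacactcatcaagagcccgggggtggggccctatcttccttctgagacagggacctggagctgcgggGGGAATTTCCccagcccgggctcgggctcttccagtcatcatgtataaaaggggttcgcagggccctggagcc

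Ccl6, a chemokine of macrophages and neutrophils, had the highest ratio among the 28 genes compared in AT2 cells. It had 244 UMIs in 22 AT2 cells labelled IPKO, 1.95 CPM, and 31 UMIs in 31 AT2 cells labelled WT, 0.266 CPM, a log2 ratio of 2.87 (2.33 to 3.46). A single cell held 47.1% of the UMIs in the library labelled IPKO, and that cell also held 109 UMIs of myeloid markers and 72 of pan-immune markers. The 23 AT2 cells labelled IPKO with 2 or more pan-immune markers, 0.323% of the class, held 93.9% of the Ccl6 UMIs. Without such cells Ccl6 had 15 UMIs in the library labelled IPKO and 31 in the library labelled WT, a log2 ratio of -1.15 (-2.14 to -0.21), and its direction turned round. It also turned round with AT2 cells taken from 15% Sftpc, with a log2 ratio of -0.31. The same 23 cells held 92.2% of the 64 Il1b UMIs and 92% of the 25 Il7r UMIs of AT2 cells labelled IPKO. Ccl5, a T-cell and natural killer cell chemokine, rested on such cells in the library labelled WT. With all AT2 cells it had 131 and 116 UMIs in the libraries labelled IPKO and WT. Of these, 32.1% and 94.0% lay in cells with immune markers. Without such cells Ccl5 had 89 and 7 UMIs, below 1 CPM in both, a log2 ratio of 3.57 (2.47 to 4.93). The library labelled IPKO also held 113 lymphocytes against 16, and its AT2 cells had 64 UMIs of the T-cell gene Cd3d against 1; the part of lymphocyte RNA in the Ccl5 counts was not tested further.

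Below 1 CPM several further genes had ratios past 1.5-fold in AT2 cells, but many rest on few cells. Cxcl5, a further Cxcr2 ligand, had 83 and 40 UMIs, 42.2% and 67.5% of them in 1 cell of each library. Cxcl12 had 20 and 36 UMIs, 55% and 80.6% in 1 cell. Il18 had 78 UMIs in 62 cells labelled IPKO and 41 UMIs in 41 cells labelled WT, a log2 ratio of 0.82 (0.26 to 1.41). Without the cells with immune markers the Il18 ratio was 0.38 (-0.23 to 0.99). Il20rb, a chain of IL-20 family receptors, had 13 UMIs in 13 cells and 31 UMIs in 30 cells, a log2 ratio of -1.36 (-2.41 to -0.38).

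**Figure D3:**
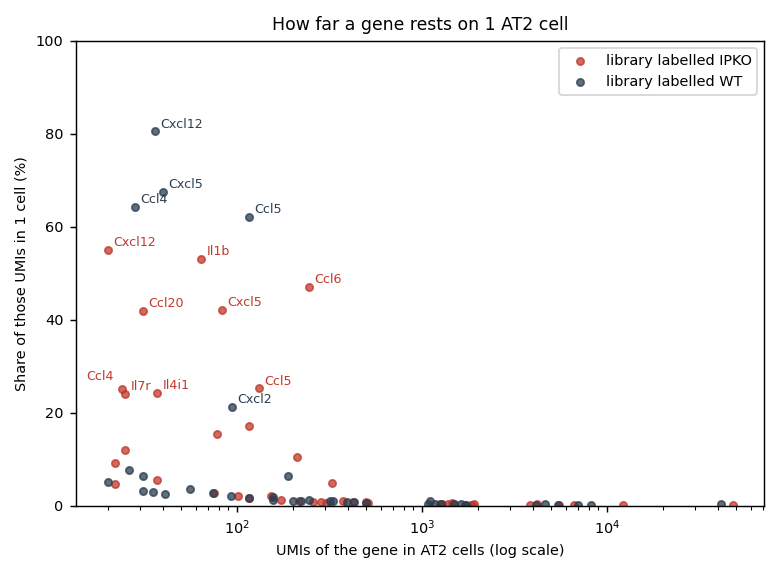
Share of a gene's UMIs in AT2 cells that lay in 1 cell (%, vertical axis) against its UMIs in AT2 cells (log scale, horizontal axis), for genes with at least 20 UMIs in that library; red points are the library labelled IPKO and dark points the library labelled WT. Genes above 20% are named; Ccl6, Ccl5, Cxcl5, Cxcl12 and Il1b stand high, while the genes with the most UMIs lie near 0.

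The abundant genes differed by less than 1.5-fold between the labels, though their counting intervals are narrow. Il18r1 had 12248 UMIs in AT2 cells labelled IPKO and 8161 in those labelled WT, a log2 ratio of 0.48 (0.44 to 0.52). With every cell thinned to 3000 UMIs it was seen in 23.9% of AT2 cells labelled IPKO and 18.4% of those labelled WT. Il33 had a log2 ratio of 0.11 (0.09 to 0.13). Il34 had a log2 ratio of -0.33 (-0.43 to -0.22), Il17d of -0.41, Cxcl17 of -0.25, Il10rb of -0.21 and Il6st of -0.16. Cxcl17 was the single member within 10 Mb of Ptgir, at a distance of 8.49 Mb on chromosome 7.

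Keratin-high cells were compared with AT2 cells of their own library, so each library gives a value of its own. Their leading genes were S100a6, Lgals3, Areg, Anxa1, Krt19 and Sfn, of which S100a6, Lgals3, Areg and Sfn are on the list of markers of the transitional alveolar state and Krt19 is one of the keratins that chose the cells. The median level of that list was 1025 and 1070 CPM in keratin-high cells, against 153 and 128 CPM in AT2 cells, and that of the 9 AT2 markers was 245007 and 257720 CPM in keratin-high cells, against 257285 and 262941 CPM in AT2 cells. Of 24 members that could be compared, 6 were higher in keratin-high cells past 1.5-fold in both libraries (5.76% of all 10790 genes) and 1 was lower (2.25% of all genes). The median of the members' log2 ratios was 0.13 and that of all genes 0.09.

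Cxcl16 was the most abundant gene that stood higher in keratin-high cells. In the library labelled IPKO it had 107.7 CPM in keratin-high cells against 44.1 CPM in AT2 cells, a log2 ratio of 1.29 (1.17 to 1.40). In the library labelled WT it had 148.6 CPM against 46.4 CPM, a log2 ratio of 1.68 (1.57 to 1.78). Cx3cl1, the other membrane-bound chemokine, had 6.02 CPM against 2.42 CPM in the library labelled IPKO and 5.83 CPM against 1.91 CPM in the library labelled WT, log2 ratios of 1.32 and 1.61. Both transmembrane chemokines were thus higher in keratin-high cells of each library. Markers of other cells were also higher there: the mesenchymal markers summed to 157 CPM in keratin-high cells against 52.9 CPM in AT2 cells labelled IPKO, and 156 against 52.7 CPM in those labelled WT. The AT1 markers summed to 2090 against 1553 CPM, and 2080 against 1482 CPM, and the part of these cells' RNA was not tested. Cxcl1 had log2 ratios of 1.08 and 0.89, but 25.7% and 35.3% of its UMIs in keratin-high cells lay in 1 cell of each library, and it was no longer past 1.5-fold in both without those cells.

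The remaining 3 higher genes are receptor chains. Il4ra had 23.3 CPM in keratin-high cells against 9.96 CPM in AT2 cells of the library labelled IPKO, and 19.96 CPM against 9.48 CPM in the library labelled WT. Il13ra1, its partner, had 18.4 CPM against 11.0 CPM, and 22.4 CPM against 10.9 CPM. Il1r1 had 22.8 CPM against 11.7 CPM, and 18.9 CPM against 10.1 CPM. The log2 ratios in the libraries labelled IPKO and WT were 1.23 and 1.07 for Il4ra, 0.74 and 1.04 for Il13ra1 and 0.97 and 0.90 for Il1r1. Both chains of the type II IL-4 receptor were thus higher in keratin-high cells. Il1rap, the partner of Il1r1, had log2 ratios of -0.26 and 0.02.

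Il33 was the single gene counted as lower in keratin-high cells. It had 193 CPM in keratin-high cells against 384 CPM in AT2 cells of the library labelled IPKO, a log2 ratio of -0.99 (-1.08 to -0.91). In the library labelled WT it had 163 CPM against 357 CPM, a log2 ratio of -1.13 (-1.23 to -1.03). A typical keratin-high cell held 2 and 1 Il33 UMIs, a typical AT2 cell 5 and 4. Thinned to 3000 UMIs, 36.2% and 30.4% of keratin-high cells had an Il33 UMI, against 60.3% and 52.2% of AT2 cells. The cell with the most Il33 UMIs held 11.5% of those in keratin-high cells labelled WT. Il18r1, the other abundant gene, was within 1.5-fold between the classes, with log2 ratios of 0.14 and 0.03, as were Cxcl17 with 0.15 and 0.12, Il34 with 0.09 and -0.02, Il17re with 0.06 and 0.08 and Il17ra with -0.14 and 0.01.

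**Figure D4:**
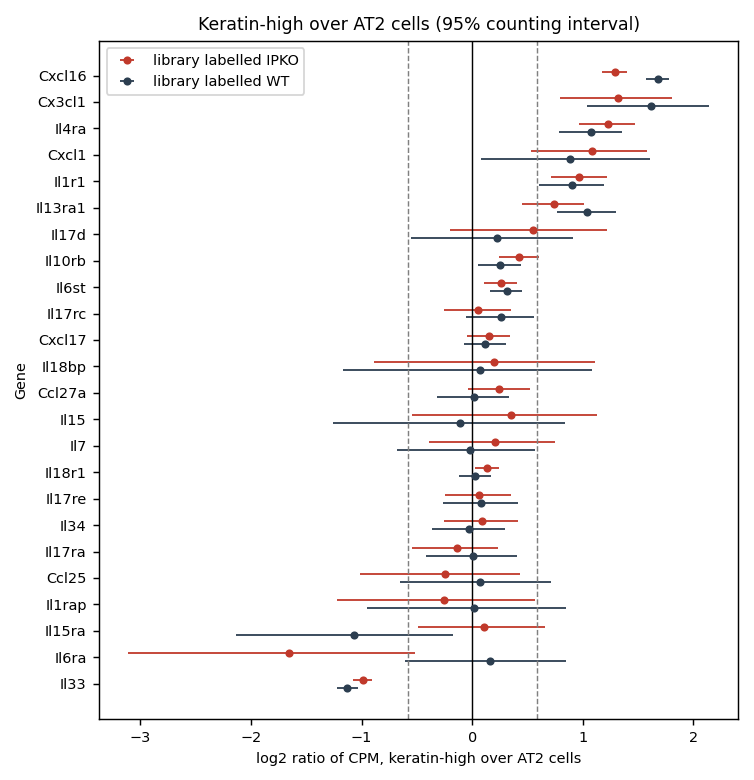
Log2 ratio of CPM, keratin-high over AT2 cells of the same library, for the 24 genes compared in both libraries; red points are the library labelled IPKO, dark points the library labelled WT, bars are 95% counting intervals and dashed lines mark 1.5-fold. Cxcl16, Cx3cl1, Il4ra, Il1r1, Cxcl1 and Il13ra1 lie past the right line in both libraries and Il33 past the left line in both.

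Between the libraries, 27 members could be compared in keratin-high cells. In the library labelled IPKO 5 were higher (6.24% of all 10495 genes) and 3 were lower (4.78% of all genes). Several of these rest on 1 cell. Ccl5 had 185 UMIs in the library labelled IPKO, all in 1 cell that also held 198 UMIs of lymphocyte markers, and 0 in the library labelled WT. Cxcl5 had 28 and 3 UMIs, 27 of the 28 in 1 cell. Ccl20, which draws cells with Ccr6, had 7 UMIs in 1 cell labelled IPKO and 102 UMIs in 7 cells labelled WT, 51.0% of them in 1 cell, a log2 ratio of -4.02 (-5.37 to -2.93). Cxcl1 had 35 UMIs in 16 cells and 17 UMIs in 10 cells, a log2 ratio of 0.88 (0.01 to 1.81).

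Il18r1, which was spread over many keratin-high cells, was the most abundant gene counted there. It had 679 UMIs, 107.6 CPM, in the library labelled IPKO and 405 UMIs, 71.6 CPM, in the library labelled WT, a log2 ratio of 0.59 (0.41 to 0.77) that is barely past 1.5-fold and lies near the AT2 value of 0.48. Il15ra had 28 UMIs in 27 cells and 10 UMIs in 10 cells, a log2 ratio of 1.33 (0.24 to 2.53). Il6ra had 6 UMIs in 6 cells and 18 UMIs in 14 cells, a log2 ratio of -1.74 (-3.36 to -0.35). Cxcl10, an interferon-induced chemokine, had 6 UMIs in 3 cells and 16 UMIs in 7 cells, 66.7% and 50% of them in 1 cell, a log2 ratio of -1.57 (-3.21 to -0.14). Cxcl16 had 107.7 and 148.6 CPM, a log2 ratio of -0.46 (-0.61 to -0.32), and Cx3cl1 0.05 (-0.67 to 0.76).

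AT2 cells of each library were then ranked by the share of UMIs from 12 early-response genes (Fos, Fosb, Fosl1, Jun, Junb, Jund, Egr1, Ier2, Ier3, Atf3, Klf6, Zfp36), genes that many cells switch on within minutes of a stimulus, cell isolation included. None of them is a member. From the lowest to the highest quintile their sum ran through 1347, 3549, 5233, 7033 and 10344 CPM in the library labelled IPKO and 787, 1584, 2601, 3964 and 6886 CPM in the library labelled WT. Of 25 members compared, 2 were higher in the highest than in the lowest quintile past 1.5-fold in both libraries (2.54% of all 10712 genes) and 0 were lower (0.299% of all genes). The median log2 ratio was 0.21 for the members and 0.18 for all genes.

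Cxcl1 followed the early-response genes in both libraries. From the lowest to the highest quintile it had 1.12, 2.75, 2.74, 2.59 and 4.03 CPM in the library labelled IPKO and 0.84, 0.84, 1.62, 2.18 and 2.76 CPM in the library labelled WT. The log2 ratio of the highest over the lowest quintile was 1.85 (1.23 to 2.52) in the library labelled IPKO and 1.72 (0.96 to 2.53) in the library labelled WT. Keratins differed too, at 333 CPM in the highest against 260 CPM in the lowest quintile of the library labelled IPKO and 315 against 217 CPM in the library labelled WT, and their part was not tested. Pan-immune markers differed as well, with 6.46 CPM in the highest and 1.47 CPM in the lowest quintile of the library labelled IPKO. In the library labelled WT they had 0.468 and 0.588 CPM. The part of immune cell RNA was not tested. Il15, which sustains natural killer and memory T cells, was just past 1.5-fold, with log2 ratios of 0.74 (0.06 to 1.43) and 0.59 (-0.08 to 1.28). Cx3cl1 had 2.19, 2.06, 2.31, 2.47 and 3.12 CPM in the library labelled IPKO and 1.22, 1.43, 1.87, 2.40 and 2.71 CPM in the library labelled WT, log2 ratios of 0.51 and 1.16. Cxcl3 did not share a direction, with log2 ratios of 1.04 (0.34 to 1.77) and -0.43 (-1.38 to 0.48).

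Cxcl17 ran the other way. It had 54.7, 33.6, 29.5, 24.8 and 23.5 CPM from the lowest to the highest quintile in the library labelled IPKO, and 49.2, 40.5, 38.4, 35.7 and 33.3 CPM in the library labelled WT. The log2 ratios were -1.22 (-1.37 to -1.08) and -0.56 (-0.70 to -0.43), so the gene was past 1.5-fold in the library labelled IPKO and just short of it in the library labelled WT. Il33 had log2 ratios of -0.13 and -0.32, Il18r1 of 0.19 and 0.23 and Il1r1 of 0.50 and 0.51. Cxcl17 was also lower in the library labelled IPKO over all AT2 cells, the library with the higher early-response sum, and the part of that sum in the difference was not tested.

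**Figure D5:**
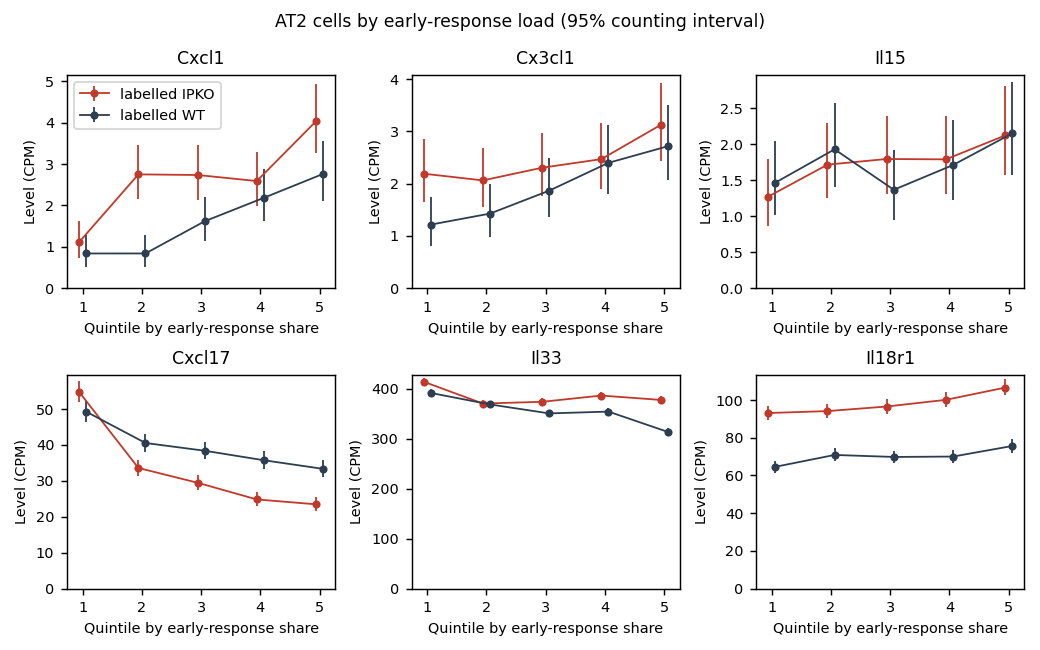
Level (CPM, vertical axis from 0) of 6 genes in AT2 cells split into quintiles by the share of UMIs from early-response genes (lowest quintile at the left); red is the library labelled IPKO, dark the library labelled WT, and bars are 95% counting intervals. Cxcl1 is highest in the highest quintile and Cxcl17 in the lowest in both libraries, while Il33 and Il18r1 change little.

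Endothelial cells, 64 in each library with median totals of 2985 and 3247 UMIs, had a different set. Cxcl12, the ligand of Cxcr4 that holds leukocytes and progenitor cells in tissue, had 630 CPM (152 UMIs in 29 cells) in the library labelled IPKO and 693 CPM (163 UMIs in 36 cells) in the library labelled WT, far above its level in AT2 cells. Il6st had 253 and 332 CPM and Il4ra 149 and 204 CPM, while Il2rg had 91.2 and 80.8 CPM, Il17rd 62.2 and 72.3 CPM and Il3ra 58.1 and 51.1 CPM. Endothelial cells thus had a chain, Il2rg, that AT2 cells nearly lacked. Il33 had 24.9 and 25.5 CPM from 6 UMIs each, where free AT2 RNA alone, scaled by Sftpc, would give 10.9 and 8.59 CPM. Counts this small carry wide counting intervals, and whether endothelial Il33 exceeds free AT2 RNA was not tested. Ccl21a, a lymphatic chemokine, had 291 UMIs in 1 endothelial cell labelled IPKO and 0 in the library labelled WT. Against AT2 cells, 13 of 27 members compared were higher in both libraries (41.5% of all genes) and 7 were lower (15.6% of all genes), and the 7 were Ccl25, Ccl27a, Cxcl17, Il17re, Il18r1, Il33 and Il34.

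Lymphocytes and myeloid cells, which a CD45-negative sort should have removed, carried the classic leukocyte genes. Ccl5 had 7017 CPM in lymphocytes labelled IPKO, 4688 UMIs in 37 of 113 cells, and 1717 CPM in lymphocytes labelled WT, 151 UMIs in 3 of 16 cells, 92.1% of them in 1 cell. Ccl4 had 638 CPM in lymphocytes labelled IPKO, 426 UMIs in 26 cells, and 136 CPM in lymphocytes labelled WT. The latter rests on 12 UMIs in 1 cell and does not pass as measured. In myeloid cells Ccl4 had 542 and 124 CPM, with 55.2% and 37.5% of UMIs in 1 cell. Xcl1, a chemokine of T and natural killer cells, had 62.9 and 0 CPM in lymphocytes. Il7r, the IL-7 receptor chain, had 234 and 568 CPM in lymphocytes, against 25 and 1 UMIs over all AT2 cells, which carry the ligand Il7. In lymphocytes labelled IPKO both chains of the IL-18 receptor were measured, Il18r1 with 65.9 CPM (44 UMIs) and Il18rap with 40.4 CPM (27 UMIs). In the 16 lymphocytes labelled WT the chains had 4 and 2 UMIs, and Il18rap did not pass as measured.

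In myeloid cells Ccl6 had 1472 CPM in the library labelled IPKO and 5300 CPM in the library labelled WT, seen in 53 of 62 and 20 of 21 cells. Il1b had 1198 and 1511 CPM, with 13.1% and 26.6% of UMIs in 1 cell. Cxcl2 had 716 and 1299 CPM, with 18.7% and 44.4% of UMIs in 1 cell. Il18, low in AT2 cells, had 167 and 376 CPM. Ccl3 had 546 and 201 CPM, with 68.7% and 43.6% of UMIs in 1 cell. Among receptors, Il17ra had 167 and 175 CPM, Il6ra 171 and 108 CPM, Il13ra1 69.9 and 119 CPM and Il10ra 105 and 36.1 CPM. Against AT2 cells, 20 of 36 members compared were higher in immune cells of both libraries (31.5% of all genes) and 10 were lower (22.1% of all genes), among them Il33, Il18r1, Cxcl17, Il34 and Il7. Between the labels these small classes are not compared, because too many of all genes were past 1.5-fold: 29.7% higher and 14.1% lower in lymphocytes, 20.6% and 19.1% in myeloid cells and 12.2% and 14.3% in endothelial cells. The few mesenchymal cells, 18 and 17, had Cxcl14 at 543 and 707 CPM and Cxcl12 at 130 and 122 CPM.

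The genes that carry these signals inside AT2 cells are given beside the shares of all genes past 1.5-fold, 2.89% higher and 1.95% lower in the library labelled IPKO. Of 16 NF-kB subunits and feedback genes, 14 could be compared, 1 was higher in the library labelled IPKO and 0 were lower, with a median log2 ratio of 0.03 beside 0.07 for all genes. The 1 was Nfkbiz, an inducible nuclear regulator of NF-kB target genes, with 49.3 CPM in the library labelled IPKO and 25.2 CPM in the library labelled WT, a log2 ratio of 0.97 (0.91 to 1.03). Nfkbia, the feedback inhibitor, had 42.3 and 52.4 CPM, a log2 ratio of -0.31, and Tnfaip3 had -0.23. Of 15 JAK and STAT genes, 13 could be compared, 1 was higher and 0 were lower, with a median of -0.02. That gene was Cish, a feedback inhibitor of cytokine receptors, with 10.8 and 7.17 CPM, a log2 ratio of 0.59 that is barely past 1.5-fold. Stat3 had 97.3 and 133 CPM, a log2 ratio of -0.46, and Socs3 had -0.39. Of 9 IL-1 and toll-like receptor adaptors 8 could be compared, with a median of -0.03, and of 7 genes that process IL-1 and IL-18 only Pycard and Gsdmd could be, with log2 ratios of 0.33 and -0.01; in neither list was a gene past 1.5-fold.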

How the data were processed

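Single-cell libraries of sorted male mouse lung cells, 1 labelled IPKO and 1 labelled WT, were made with a 10x Genomics 3′ kit (v3.1), per the labels' protocols. The deposited values are UMI counts per gene and barcode, made by the authors with Cell Ranger 4.0.0 against GRCm38 (mm10), per the submitters' processing notes. The annotation release and the read settings are not given in the sources used here. Total counts were 137471506 and 127287281 UMIs.

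Barcodes with fewer than 500 genes (1682 and 1911) or more than 20% mitochondrial counts (1725 and 2055) were removed, and 127 features were summed to 119 symbols. Scrublet, run in scanpy 1.11.5, marked 1 barcode in each library as a doublet (0.0124% and 0.0148%), too few to have worked, so no cell was removed as a doublet and removal of the highest 8% of scores was tried as an alternative. A cell was endothelial, lymphocyte, myeloid, mesenchymal or ciliated with 3 or more markers at 0.2% of UMIs and Sftpc under 10%. Counts were summed per class and library and scaled to CPM. Levels have exact Poisson intervals, ratios exact conditional binomial intervals and shares exact Clopper-Pearson intervals, at 95%, for counting error only. The floor for a count of 0 is 3 counts. The ratio procedure was run on simulated sums with Poisson counting error alone (python 3.11.15, numpy 2.4.6, scipy 1.17.1, pandas 2.3.3). Such sums leave out the gathering of a gene's UMIs in few cells, so the intervals were not tested for it. Thinning drew 3000 UMIs per cell and left out 20 and 18 AT2, 15 and 9 keratin-high and 5 and 1 lymphocyte cells with fewer. Sequences are RefSeq promoters of GRCm38.p6 and positions come from GENCODE vM21 of GRCm38, which placed all 127 features.

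The members, gene lists and tests were chosen with earlier results of these data known. Named genes are the members that averaged 5 CPM or more in AT2 cells, the 4 highest ligands and receptors of each other class, the 4 highest and 4 lowest ratios of IPKO over WT in AT2 cells, of keratin-high over AT2 cells and of the early-response comparison, and the 2 highest and 2 lowest of each related list. Other members, such as Il18, Il6, Il7, Cxcl5, Ccl20 and Cxcl10, were named after their values were seen. The comparisons were IPKO over WT in AT2 and in keratin-high cells, keratin-high over AT2 cells, and the highest over the lowest early-response quintile. Without replicates no model or p-value was used.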

Additional observations from a re-analysis of the deposited data

Results flagged for a closer look

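Ccl20, the ligand of Ccr6, had opposite directions in the classes of epithelial cells, and the difference between the classes was not tested because each label has 1 library. In AT2 cells it had 31 UMIs in 12 cells labelled IPKO and 6 UMIs in 5 cells labelled WT, a log2 ratio of 2.27 (0.98 to 3.82), at 0.248 and 0.052 CPM. In keratin-high cells it had 7 UMIs in 1 cell labelled IPKO and 102 UMIs in 7 cells labelled WT, a log2 ratio of -4.02 (-5.37 to -2.93). One AT2 cell labelled IPKO held 41.9% of the gene's UMIs in its class, and 1 keratin-high cell labelled WT held 51.0%. Without the cell with the highest count in each library, AT2 cells had 18 and 4 UMIs and keratin-high cells 0 and 50 UMIs.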

How the results depend on the processing

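Of 20 settings, 17 were planned and 3 were added after seeing the data (AT2 cells with 2 or more pan-immune markers left out, the top cell of each gene left out, and keratin-high cells with at least 10% Sftpc). Of 1093 values of named genes under these settings, 2 turned round, both of Ccl6 in AT2 cells: -0.31 with AT2 cells from 15% Sftpc and -1.15 without cells holding immune markers. A further 24 left their counting interval. The median log2 ratio of all genes in AT2 cells was 0.07 by total counts, -0.00 by median-of-ratios size factors and 0.03 without mitochondrial and surfactant genes. In AT2 cells, the members higher in the library labelled IPKO (3) numbered 0 from 5 CPM, 10 with no minimum CPM and 1 from 2-fold, and 2 (Cxcl1 and Cxcl3) without immune-marker cells or without the top cell; those lower (0) numbered 3 with no minimum. In keratin-high cells the 5 higher became 2 from 5 CPM and 3 from 2-fold, with the highest 2.5% of cells, or without the top cell, and the 3 lower became 1 from 5 CPM and 1 without the top cell. Il18r1 was no longer counted there under either rescaling. For keratin-high over AT2 cells, the 6 higher became 3 from 2-fold, and the 1 lower became 0 with the highest 10% of cells, 0 from 2-fold and 2 (Il33 and Il6ra) in keratin-high cells with at least 10% Sftpc. In the early-response comparison the 2 higher became 1 with at most 10% mitochondrial counts, from 15% Sftpc and from 2-fold, Il15 being lost, and the 0 lower became 1 (Cxcl17) from 15% Sftpc and between deciles. Related-list genes higher in the library labelled IPKO (2) numbered 1 with at most 10% mitochondrial counts, from 15% Sftpc, with AT2 cells by Sftpc alone and under both rescalings, 5 with no minimum and 0 from 2-fold. Called measured from 10 UMIs in 5 cells, members numbered 24 (38) in keratin-high cells labelled WT, 8 (14) and 8 (13) in endothelial and 33 (50) and 18 (28) in immune cells labelled IPKO and WT. The cause of these changes was not tested beyond the settings' own construction. The class sizes limit most values: the floor of 3 counts is 12.4 and 12.8 CPM in endothelial cells labelled IPKO and WT, and 0.0240 and 0.0258 CPM in AT2 cells. No paired analysis was possible because each label has 1 library.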
